A study of Pimephales promelas with 27 samples.

Results

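Ovary explants of the fathead minnow (Pimephales promelas) exposed to DHT for 6 h were compared with control explants of the same time. The comparison rests on the 5 arrays titled DHT6 and the 4 titled CON6, chosen by their titles alone, which are 9 of the 27 arrays of the series. Explants are pieces of ovary kept alive in culture. The series followed them for 6, 9 and 12 h, so 6 h is its earliest time. All samples came from females. The treated group received DHT (dihydrotestosterone) at 1e-06 M, and the other group is labelled only as control. Genotype, strain, age and vehicle are not given by the labels. Nor do they say which explants came from which fish, and the spread that p-values rest on may in part be technical. Each array measured the total RNA of 1 sample, labelled with Cy3. Per the labels, only RNA with an integrity number above 7.5 after clean-up was hybridised.

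DHT is an androgen that the enzyme aromatase cannot turn into an estrogen. It binds the androgen receptor, which moves to the nucleus and changes transcription of its target genes. The fish ovary makes androgens itself: theca cells of the follicle produce them, and granulosa cells convert testosterone into estradiol, which drives the liver to make yolk protein. Androgens have been linked to early oocyte growth in fish. The comparison at 6 h asks how far an added androgen had changed transcript levels by the first sampling.

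The array carried 15208 probes designed from fathead minnow transcripts. The files do not pair these probes with genes, and 0 of their names matched the reference table of the species. Probes are therefore given by ID, no pathway or cell type marker list could be run, and the ovarian identity of the explants was not checked against markers. No probe sequence was in the sources used here. A level is the log2 processed signal minus the log2 of its array's 75th percentile, so that 0 lies at that percentile and a step of 1 is a 2-fold change. A difference is the mean of the DHT arrays minus the mean of the control arrays on this scale.

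No difference between the arms passed in 3 measures of signal, though tests on 4 and 5 arrays cannot show that the arrays were alike. The level of foreign RNAs added to the samples, given at the end, was higher on DHT replicates 2, 3 and 4 than on any other array. The 75th percentile ranged from 2733 to 3989 on control and from 2581 to 4103 on DHT arrays, and no probe was saturated. Its mean on the log2 scale was 11.62 ± 0.24 (SD, n = 4) for control and 11.74 ± 0.25 (SD, n = 5) for DHT (exact two-sided permutation test over all labellings of the arrays, p = 0.468, adjusted p = 0.468 over 3 measures). Probes well above background made up 73.9% to 87.2% of the probes on control and 82.3% to 88.0% on DHT arrays (exact permutation p = 0.151, adjusted p = 0.452). Control replicate 1 had the lowest share. The median local background averaged 37.5 in control and 39.0 in DHT arrays (exact permutation p = 0.389, adjusted p = 0.468). All 9 arrays were scanned on the same day. Slide 2 held DHT replicates 1 to 4 and control replicate 2, slide 1 control replicate 1, slide 3 DHT replicate 5 and slide 4 control replicates 3 and 4. Precision is limited by the number of arrays. Arm and slide overlap in large part, and slide 2 is the only slide with both arms.

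The effect of DHT at 6 h was small against the spread between samples, and no probe passed the test without pairing of the arrays. limma called 0 of 13714 tested probes (0%) at an adjusted p under 0.05, the smallest adjusted p being 0.285. With control and DHT arrays paired by their likeness, as described further on, limma called 1 probe with the pairs as a fixed block and 3 as a random block. Without adjustment, 59 probes (0.43%) had a p under 0.05, with 29 higher in the DHT arrays (0.211%) and 30 lower (0.219%). The median absolute difference was 0.12 on the log2 scale, a 1.09-fold change. For 9 in 10 probes it was at most 0.41, a 1.32-fold change. The median SD between arrays of the same arm was 0.39 in both the control and the DHT group. The standard error of the difference had a median of 0.31, and the ratio of difference to standard error a median size of 0.40. In the fit without pairs, the typical difference between the arms was thus smaller than its own error. With no effect and independent arrays, 685.7 probes would be expected at an unadjusted p under 0.05. That fit takes no account of the likeness of control and DHT arrays described further on. Its errors, p-values and intervals may therefore be too large.

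The differences did not lean far in one direction. Their median was -0.01, with 6368 probes (46.4%) higher and 7346 (53.6%) lower in the DHT arrays. After quantile normalization 45.4% were higher, after normexp background correction 45.1%, and in the deposited values 45.4%. Single differences ran from -2.005 to 3.85. More than a 2-fold change separated the means of 216 probes (1.58%), 158 of them higher with DHT and 58 lower. The excess of higher values among these large differences was kept by the other scalings, at 164 against 54 after quantile normalization, 77 against 8 after normexp and 149 against 61 in the deposited values. All scalings use the same arrays. In the pairs of arrays described further on, over 10015 probes, 221 were higher and 69 lower in the pair with DHT replicate 2. The other pairs had 74 and 16, 45 and 55, and 5 and 18. The part of single arrays in the excess was not tested.

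**Figure D1:**
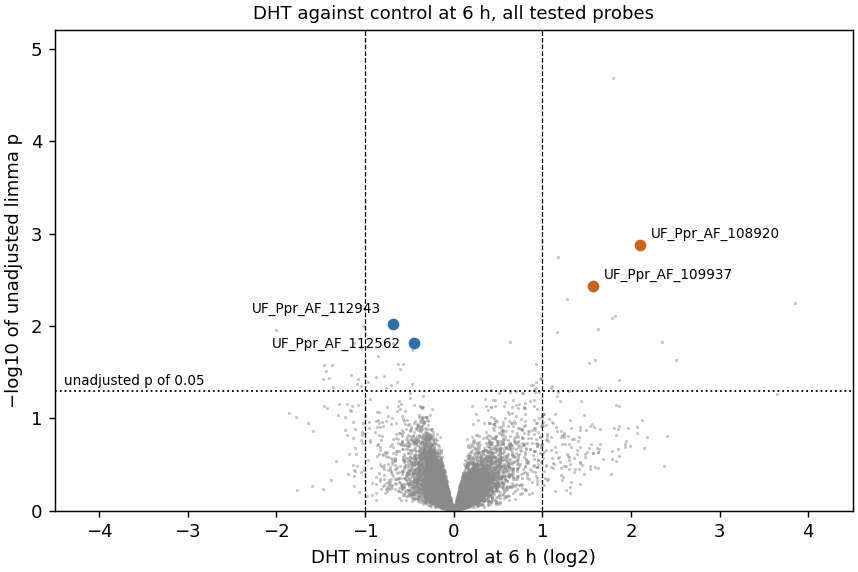
Each of the 13714 grey points is a tested probe, with its difference between the DHT and control arrays at 6 h (log2) on the x axis and the −log10 of its unadjusted limma p on the y axis. The dashed lines mark a 2-fold change and the dotted line an unadjusted p of 0.05, above which lie 59 probes. The 4 named probes are coloured, orange for higher and blue for lower with DHT.

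The size of the differences went with the level of the probe. Among 3637 probes with a mean level above 0, the most abundant transcripts, the median absolute difference was 0.07 and the median difference -0.01. Among 2799 probes with a mean level below -6 it was 0.23, and the median difference was 0.08. Only 5.14% of these dim probes were well above background on all 9 arrays, against 100% of those above 0. The interval of the difference also widened, from a median of 0.39 to either side above 0 to 0.99 below -6. The part of dimness in the large differences was not tested.

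Overlap between the arms was the rule. Every DHT array lay above every control array for 13 probes (0.0948%), and below every control array for 16 (0.117%). With no effect and independent arrays, group size alone gives a proportion of 0.00794 in each direction, which is above both shares. These probes are therefore only described, and were not taken as a set that responds to DHT. The 13 higher probes had differences between 0.11 and 3.65, with a median of 0.80, and 7 of them were well above background on all 9 arrays. The 16 lower probes had differences between -0.63 and -0.19, with a median of -0.31, and 15 of them were well above background on all 9 arrays. More than a 2-fold change was seen in 5 of the 13 and 0 of the 16. Leaving out any 1 of the 9 arrays raised the count of 29, from 58 without DHT replicate 2 to 272 without control replicate 1, of which 28 were higher. These counts are out of 13714 probes. Groups of fewer arrays overlap less often by construction, and the proportion that group size alone gives is then larger than 0.00794. The counts were not tested against it and are not read as probes that respond to DHT.

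Of 15039 probes without an outlier flag, 10684 were well above background on all 9 arrays at 6 h and 1074 on none. UF_Ppr_AF_115871 and UF_Ppr_AF_112091 were the only 2 detected on all 5 DHT arrays and on no control array. These and the other probes of this paragraph were singled out after their values were seen. UF_Ppr_AF_115871 stood at -7.92, -7.68, -7.64 and -7.89 on the control arrays and at -7.17, -5.48, -6.80, -6.65 and -6.94 on the DHT arrays (replicates in order). Its DHT arrays lay above all its controls, but the difference did not pass (1.18, limma adjusted p = 1), and with no control well above background its size is uncertain. For UF_Ppr_AF_112091 the controls lay between -7.63 and -7.06 and the DHT arrays between -7.20 and -5.67, which overlap. No probe was detected on all 4 control arrays and on no DHT array. Detection on at least 4 DHT arrays and no control array was found for 17 probes, and on at least 3 control arrays and no DHT array for 1, UF_Ppr_AF_110696. It did not enter the test, since it was detected on too few of the 27 arrays. Detection was more frequent on DHT arrays in general, at a mean of 84.7% of probes against 80.5% on control arrays. The 2 conditions also differ, since the arms hold 5 and 4 arrays. The part of both in these counts was not tested.

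UF_Ppr_AF_115298 had the smallest p of all tested probes. It stood at -8.67, -9.24, -8.74 and -8.67 on the control arrays and at -6.81, -7.28, -6.38, -7.24 and -7.48 on the DHT arrays. The arms were well apart, but the probe was well above background on 0 control and 4 DHT arrays. Its difference of 1.79 (SE 0.34, limma adjusted p = 0.285) therefore has no certain size. With inferred pairs it passed as a random block (limma adjusted p = 0.00885) and not as a fixed block (limma adjusted p = 0.964).

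The 2 probes with the smallest p in each direction, among those well above background on all 9 arrays, were taken as the named examples. UF_Ppr_AF_109937 was the only one of the 4 whose arms did not overlap. Its level was -2.97, -2.98, -4.25 and -4.51 on the control arrays, replicates 1 to 4. On the DHT arrays it was -2.79, -2.73, -1.60, -0.81 and -2.57, replicates 1 to 5. All 5 DHT arrays lay above all 4 control arrays, although the highest control and the lowest DHT array were close. The means were -3.67 ± 0.82 (SD, n = 4) and -2.10 ± 0.87 (SD, n = 5), a difference of 1.58 (SE 0.49) or 2.98-fold. With an interval (95%) of 0.57 to 2.59 and a limma adjusted p of 1, it missed the threshold over all probes in the fit without pairs. It passed with inferred pairs as a fixed block (limma adjusted p = 0.0168) and as a random block (limma adjusted p = 0.00885). On slide 2, the DHT arrays exceeded the control by 0.99. At 9 h the difference of this probe was 0.71 (SE 0.46, limma adjusted p = 1.00), and at 12 h it was 0.19 (SE 0.52, limma adjusted p = 1.00).

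UF_Ppr_AF_108920 had the largest difference of the 4. It stood at -5.98, -5.53, -5.39 and -5.02 on the control arrays. The DHT arrays were at -5.21, -0.75, -3.88, -2.70 and -4.31. The controls kept close together while the DHT arrays spread widely, and DHT replicate 1 lay within the range of the controls. The difference was 2.11 (SE 0.58, limma adjusted p = 1), with an interval of 0.91 to 3.30. With inferred pairs it passed as a random block (limma adjusted p = 0.0414) and not as a fixed block (limma adjusted p = 0.964). It was 1.45 without DHT replicate 2, the highest array, and 1.41 after normexp. At 9 and 12 h the differences were 0.23 (SE 0.54) and -0.46 (SE 0.61).

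The lower probes differed less. UF_Ppr_AF_112943 was at -6.27, -4.77, -5.50 and -5.42 on the control arrays and at -6.12, -5.97, -6.50, -6.24 and -6.04 on the DHT arrays. Control replicate 1 lay among the DHT arrays, and control replicate 2 well above the rest. Its processed signal was between 38.0 and 100.4 on these arrays, so it was dim. The difference was -0.68 (SE 0.24, limma adjusted p = 1), -0.44 without control replicate 2 and -0.26 after normexp.

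UF_Ppr_AF_112562 was at -3.10, -3.13, -3.51 and -3.37 on the control arrays. The DHT arrays were at -3.69, -3.998, -3.67, -3.34 and -3.92. DHT replicate 4 lay within the range of the controls and the other DHT arrays below it. The difference was -0.45 (SE 0.17, limma adjusted p = 1), a 1.36-fold change. The SD was 0.20 (n = 4) in control and 0.26 (n = 5) in DHT arrays.

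**Figure D2:**
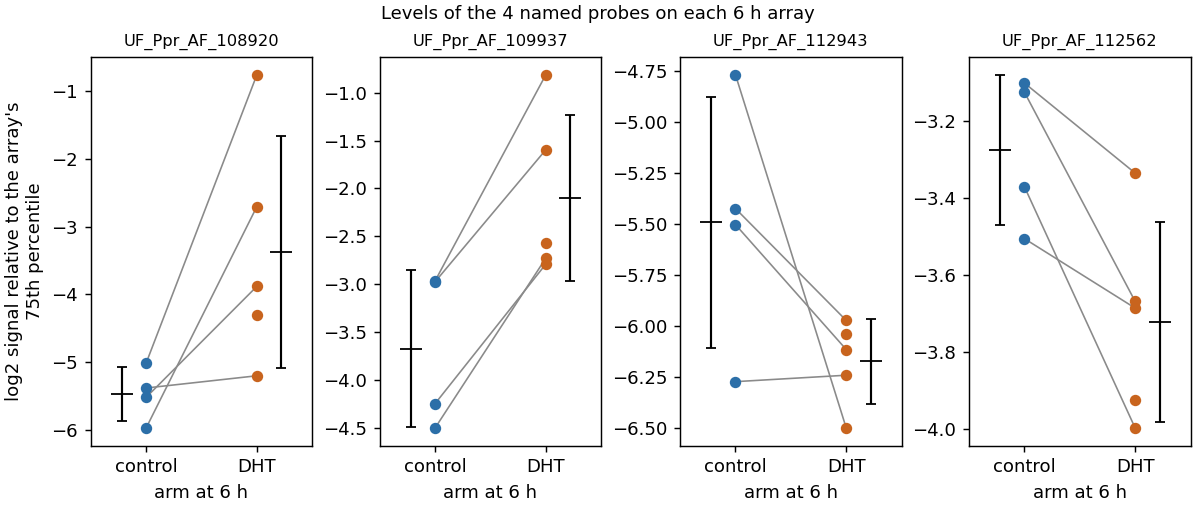
Points are the levels of the 4 named probes on each array at 6 h (log2 signal relative to the array's 75th percentile, y axis, on a separate scale for each probe), control in blue and DHT in orange. Bars give the mean and SD of each arm (n = 4 and 5), and grey lines join each control array to the DHT array it most resembled, which leaves DHT replicate 5 unjoined. All 4 lines rise for UF_Ppr_AF_108920 and UF_Ppr_AF_109937 and fall for UF_Ppr_AF_112562. For UF_Ppr_AF_109937 all DHT points lie above the control points.

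The arrays did not group by treatment. They were compared over the 10015 tested probes well above background on all 27 arrays, after the mean of the 9 arrays had been taken from each probe. Pearson's r of these deviations is given across probes, as a description, and is pushed somewhat below 0 between unrelated arrays because all share the mean. Among controls it ranged from -0.36 to -0.15 over 6 comparisons, and among DHT arrays from -0.33 to 0.03 over 10. No 2 arrays of the same arm were clearly alike by this measure.

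Each control array nevertheless had 1 DHT array that it closely resembled. Control replicate 1 and DHT replicate 4 had an r of 0.82, control replicate 2 and DHT replicate 3 of 0.75, control replicate 3 and DHT replicate 1 of 0.87, and control replicate 4 and DHT replicate 2 of 0.45. In all 4 cases each array was the best partner of the other. Best partners were found without the treatment labels, and only those of different arms were then taken as pairs, which at 6 h left out none. The remaining 16 comparisons of a control with a DHT array gave an r of -0.36 to -0.07. DHT replicate 5 had no partner, its highest r being 0.03. Only control replicate 2 and DHT replicate 3 were on the same slide, and the 10 other comparisons within a slide had a mean r of -0.25, against -0.22 for 22 between slides. At 9 h and 12 h, 4 and 3 control arrays had such a partner, at r of 0.50 to 0.87 and 0.64 to 0.75.

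**Figure D3:**
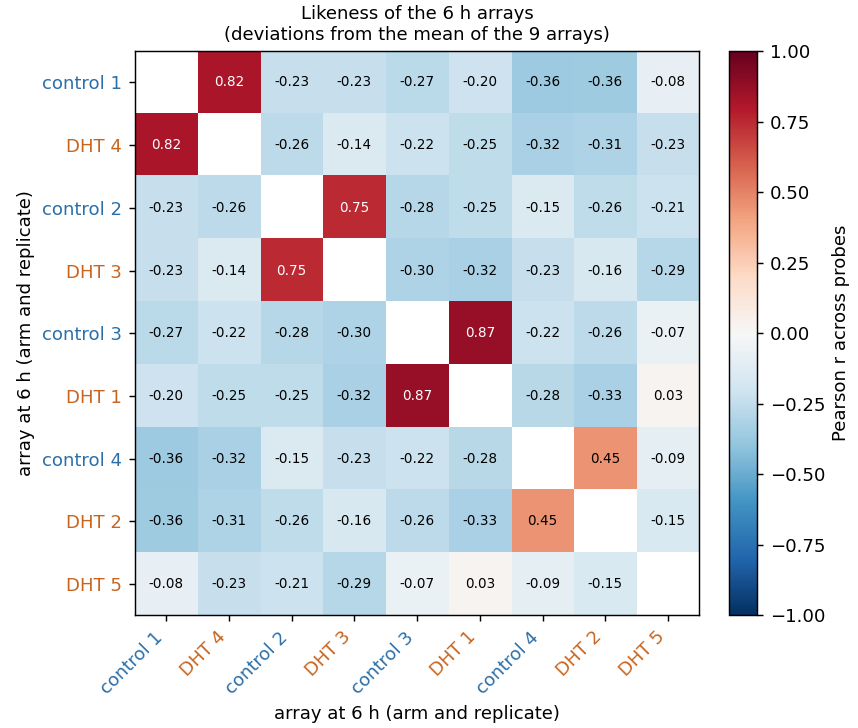
Colours and numbers give Pearson's r across 10015 probes between each 2 of the 9 arrays at 6 h, after the mean of the 9 was taken from each probe. Both axes list the arrays, control in blue and DHT in orange, with partners next to each other. The 4 partner pairs stand at 0.45 to 0.87 and every other pair at 0.03 or below.

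The same held for the size of the differences between single arrays. The median absolute difference between partners was 0.14 for control replicate 1 with DHT replicate 4, 0.18 for 2 with 3, 0.12 for 3 with 1 and 0.19 for 4 with 2. It was 0.30 to 0.39 between control arrays, 0.29 to 0.38 between DHT arrays, and 0.30 to 0.39 between control and DHT arrays that were not partners. More than a 2-fold difference separated 0.23% to 2.90% of the probes of partners and 9.43% to 15.4% of those of any other 2 arrays. DHT replicates 1 to 4 thus each resembled 1 control array more than they did any other DHT array, and DHT replicate 5 did not. The labels give no fish of origin, and the origin of this likeness was not tested.

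**Figure D4:**
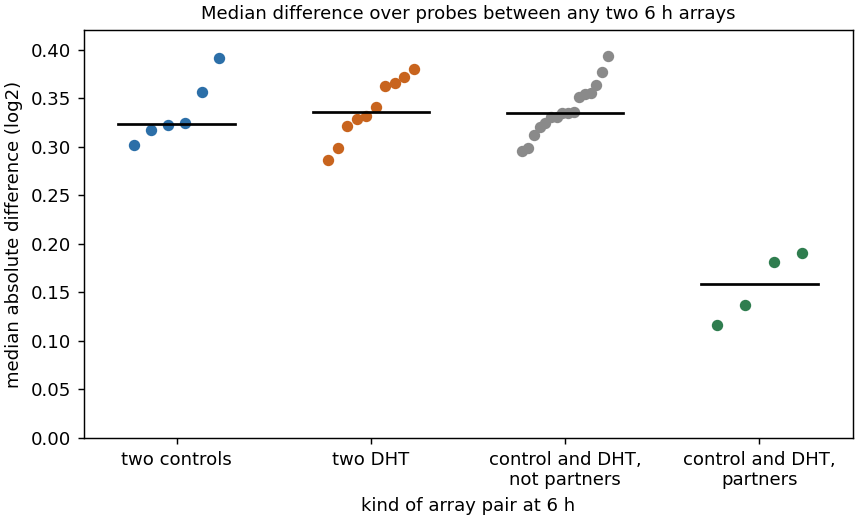
Each point is 1 of the 36 pairs of arrays at 6 h, with the median absolute log2 difference over 10015 probes on the y axis, and bars mark the median of each kind. Partners lie at 0.12 to 0.19, and the other 32 pairs at 0.29 to 0.39 whatever their treatment.

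The main components of variation did not separate the arms. The first 3 principal components of the 9 arrays held 28.9%, 22.9% and 21.1% of the variance. The mean scores of DHT and control arrays differed by 3.50 on the first, where the SD was 27.4 among controls (n = 4) and 31.1 among DHT arrays (n = 5). Exact two-sided permutation tests gave a p of 0.897, 0.944 and 0.865 for the 3 components, each with an adjusted p of 0.944 over the 3. The smallest p that 4 against 5 arrays allow is 0.00794. These tests took no account of partners and cannot show a shift within pairs. On the component with 22.9% of the variance, the DHT array had the higher score in all 4 pairs. It went from 7.66 to 10.2, 31.8 to 35.5, -31.0 to -30.9 and -1.82 to 0.92 in the pairs of control replicates 1 to 4. DHT replicate 5, without a partner, stood at -22.4. On the other components the direction differed between pairs. The component with 22.9% of the variance was singled out after its values were seen, and 4 pairs can agree in direction without any effect. Shifts within pairs were not tested.

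The median SD of the 10015 probes over the 9 arrays was 0.32. The 500 probes most variable at 6 h had an SD of 0.98 to 3.78. Between partners the median absolute difference of these 500 was still only 0.14 to 0.29, against 0.90 to 1.93 between other arrays. Since these probes were picked for their spread, the values are a description.

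With partners set against each other, few probes moved alike by more than 1.2-fold. Within the 4 pairs, 23 to 290 of the 10015 probes differed more than 2-fold. The most were in the pair of control replicate 4 and DHT replicate 2, where 221 were higher and 69 lower with DHT. In the pair of control replicate 1, 74 were higher and 16 lower. More were lower in the pairs of control replicate 2, at 45 higher and 55 lower, and control replicate 3, at 5 and 18. A difference of over 1.5-fold in the same direction in all 4 pairs was found for 3 probes (0.03%), all higher with DHT, and for 0 lower. They were UF_Ppr_AF_109937, UF_Ppr_AF_115736 and UF_Ppr_AF_109633, the last 2 named after their values were seen. UF_Ppr_AF_109937 was higher by 2.16, 1.38, 1.46 and 1.78 in the pairs of control replicates 1, 2, 3 and 4. UF_Ppr_AF_115736 was higher by 1.69, 1.01, 0.61 and 7.49, and UF_Ppr_AF_109633 by 1.96, 0.67, 0.71 and 4.83. For both, the pair with DHT replicate 2 was far above the others, while the values of UF_Ppr_AF_109937 lay close together. At a 1.2-fold difference the counts were 7 higher (0.07%) and 9 lower (0.09%). Whatever the size, 433 probes (4.32%) were higher and 925 (9.24%) lower with DHT in all 4 pairs. The median difference over the 10015 probes was 0.06, -0.03, -0.04 and -0.11 in the pairs of control replicates 1, 2, 3 and 4. It lay below 0 in every pair but that of control replicate 1. Some probes agree in direction without any effect. These shares, and the part of the shifts of whole pairs in them, were not tested.

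A fit with the inferred pairs as a fixed block called 1 of 13714 probes (0.00729%). This was UF_Ppr_AF_109937, at 1.69 (SE 0.17, limma adjusted p = 0.0168 in the fit with pairs). In such a fit an array without a partner adds nothing to the difference, so DHT replicate 5 had no part in it. With the pairs as a random block, at a consensus correlation of 0.70, limma called 3, all higher with DHT: UF_Ppr_AF_109937 (adjusted p = 0.00885), UF_Ppr_AF_115298 (adjusted p = 0.00885) and UF_Ppr_AF_108920 (adjusted p = 0.0414). UF_Ppr_AF_115298 was well above background on no control array, which leaves its size uncertain. With only the 3 pairs of r over 0.5 as a fixed block at 6 h, limma called 0 probes, with a smallest adjusted p of 0.194. Control replicate 4 and DHT replicate 2 then added nothing to the difference either. The count at an unadjusted p under 0.05 was 59 without pairs (0.43%). With all pairs as a fixed block it was 436 (3.18%), 262 higher and 174 lower, and as a random block 623. Each of these counts lies below the 685.7 expected with no effect. The median SE fell from 0.31 without pairs to 0.16 with all pairs as a fixed block. The pairs were inferred from the same arrays that were then tested, so these p-values may be too small and the calls are no independent result.

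The intervals show what size of change the data leave out. Those of the fit without pairs may be too wide, since it takes no account of the likeness of partners. In the fit without pairs, the 95% interval of the difference lay within a 2-fold change in either direction for 9035 of 13714 probes (65.9%). It lay within 1.5-fold for 29.1%, within 3-fold for 87.3% and within 4-fold for 93.0%. The median interval reached 0.64 to either side of the difference, a factor of 1.55. With Bonferroni intervals, which hold for all probes at once, a 2-fold change was left out for 1088 probes (7.93%) and a 4-fold change for 6807 (49.6%). For 70.9% of the probes the interval reached beyond 1.5-fold in this fit, for 40.7% after normexp and for 37.7% with inferred pairs as a fixed block. How many probes can be bounded at 1.5-fold thus depended on the processing and on the pairs. Normexp adds an offset of 50 to each signal, which shrinks the differences of dim probes and their intervals by construction.

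Abundant transcripts were the best bounded. A 2-fold change was left out for 93.3% of the probes with a level above 0, 77.4% of those from -2 to 0, 65.4% from -4 to -2, 58.9% from -6 to -4 and 29.3% below -6. Only 5.14% of the probes below -6 were well above background on all 9 arrays, so what their intervals say of the transcript is uncertain. Among the 10015 tested probes well above background on all 27 arrays, a 2-fold change was left out for 8074 (80.6%). Of the 500 most variable probes, it was left out for 3. With the inferred pairs as a fixed block, 85.5% of all tested probes had an interval within 2-fold and 62.3% within 1.5-fold. The 9 arrays of 6 h fitted alone gave 68.5% within 2-fold, and slide as a fixed block 50.9%.

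**Figure D5:**
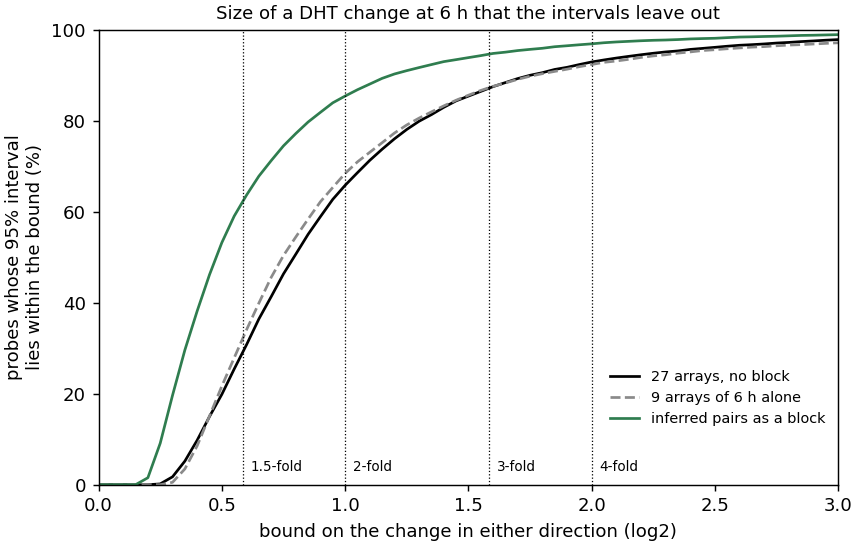
Curves give the percentage of the 13714 tested probes (y axis) whose 95% interval of the DHT difference at 6 h lies within a given change in either direction (x axis, log2), with dotted lines at 1.5-, 2-, 3- and 4-fold. In the fit of all 27 arrays without pairs (black) 65.9% of the probes lie within 2-fold, in that of the 9 arrays alone (dashed grey) 68.5%, and with inferred pairs as a fixed block (green) 85.5%.

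The effect at 6 h was compared with that at the later times, which share no arrays with it. The median absolute difference between DHT and control was 0.12 at 6 h, 0.19 at 9 h and 0.19 at 12 h, where arrays per arm were 4 and 5, 5 and 5, and 4 and 4. The test of the difference itself called 0 probes by limma for 6 against 9 h, with 69 at an unadjusted p under 0.05 (0.503%), and 0 for 6 against 12 h, with 83 (0.605%). Across all tested probes the differences at 6 and 9 h had an r of 0.19, and those at 6 and 12 h of 0.04. Of the 29 probes whose arms did not overlap at 6 h, 23 (79.3%) had a difference of the same sign at 9 h and 23 at 12 h, against 62.2% and 59.6% of all tested probes. Non-overlapping arms were found for 15 probes (0.109%) at 9 h and 325 (2.37%) at 12 h, against 29 (0.211%) at 6 h. Smaller groups, as at 12 h, overlap less often by construction. At each time the share found was below that which group size alone gives with no effect and independent arrays. The rise itself was not tested.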

How the data were processed

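Agilent Feature Extraction 10.7.1.1 wrote the authors' scanner files, per the file headers. Per the file headers, their processed signal is an intensity on a linear scale, with background subtracted and spatial trends removed by that software, and the median intensity of spot and local background stands beside it. Other columns are flags of 0 or 1, per the file headers. The authors also deposited log2 values, and how these were normalized and centred is unknown. They followed the log2 processed signal of their own array (lowest r 0.998 across probes on the 9 arrays), with column medians of 8.21 to 8.26.

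Of 15208 non-control probes, 169 with an outlier flag on any array and 1333 well above background on fewer than 4 of 27 arrays were left out, with some overlap, and 13714 were tested. limma 3.58.1 in R 4.3.3 (with jsonlite 2.0.0 and the data.table package, version 1.17.8) fitted a mean for each group of agent and time over all 27 arrays, which share 1 estimate of the spread. P-values were moderated and adjusted by Benjamini-Hochberg over all 13714 probes. Single values per array were compared by exact permutation. Inferred pairs were arrays of different arms that were each other's best partner at their time, by r of deviations from the mean of that time, and gave 11 pairs over the 3 times.

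For each direction, the named probes were the 2 of smallest p among those well above background on all 9 arrays. The planned gene lists and cell type markers were not run, since probes could not be paired with genes. Alternatives were normexp (offset 50) on the median signal, in place of the planned mean signal, with quantile normalization, quantile normalization alone, the deposited values, other filters, slide, scan day and inferred pairs as blocks, array weights, the 9 arrays alone and leaving out each array. The members, tests and lists were chosen with earlier results of these data known. The model without pairs was tested on simulated data with independent arrays, which cannot show how it performs on arrays alike in pairs. Figures used Python 3.11.15, matplotlib 3.10.9 and numpy 2.4.6.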

Additional observations from a re-analysis of the deposited data

Results flagged for a closer look

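The spike-in level lies outside the comparisons of explant transcripts. Spike-ins are foreign RNAs added to samples in fixed amounts. The level was the mean log2 signal of 7 spike-in probes minus the log2 75th percentile of the explant probes. It stood at 0.51, 0.31, 0.51 and 0.10 in the control arrays, replicates 1 to 4. DHT replicates 2, 3 and 4 were above every control, at 1.38, 1.23 and 1.34, while DHT replicates 1 and 5 were at 0.20 and -0.26. The mean was 0.36 ± 0.20 (SD, n = 4) in control and 0.78 ± 0.76 (SD, n = 5) in DHT arrays (exact two-sided permutation p = 0.310). The 3 high arrays were all on slide 2, which also held DHT replicate 1 and control replicate 2. Its part in the results was not tested.

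Of 24 groups of values checked by Dixon's test for a single array far from the rest of its arm, 0 were flagged. These values were the levels of the 4 named probes, the signal, background, detection and spike-in measures, the 3 components and the mean correlation of each array's levels with the other 8. With 4 or 5 values in a group, only a very large gap can be flagged. DHT replicate 2 was not flagged on the first component, at 53.4 against -29.8 to -1.37 for the other DHT arrays. The lack of flags therefore does not exclude an unusual array.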

How the results depend on the processing

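limma called 0 probes at 6 h under 20 of 22 alternatives, one of which, with only the pairs at r over 0.5 as a block, was chosen after the data were seen. The inferred pairs called 1 as a fixed and 3 as a random block. Among the alternatives with 0 calls, array weights came closest, with a smallest limma adjusted p of 0.0548. The number of probes with an interval within 2-fold ran from 6984 with slide as a fixed block to 12042 after normexp, and from 7940 to 8606 when 1 array was left out. The count of probes with non-overlapping arms was the least stable. It was 29 of 13714 (0.211%) in the main setting and 57 of 13714 after normexp. Without the filter on dim probes it was 100 of 15039, and among probes well above background on all arrays 18 of 10015. With no effect and independent arrays, group size alone gives a proportion of 0.00794 in each direction, which is above each of these shares. When 1 array was left out, the count was 58 to 272 of 13714. The cause of these changes in the count was not tested, except that fewer arrays or fewer probes change such a count by construction.

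Under each alternative run for them, the 4 named probes kept their direction. They were picked for a small p in the same arrays, so this is only a description. Scan day as a block and the 9 arrays alone leave the differences of these 4 probes unchanged by construction. Their differences ran from 1.41 to 2.56 for UF_Ppr_AF_108920, 1.25 to 1.81 for UF_Ppr_AF_109937, -0.94 to -0.26 for UF_Ppr_AF_112943 and -0.54 to -0.32 for UF_Ppr_AF_112562. Without a fixed or random block of pairs, none passed. The difference between 6 h and the later times called 0 probes in each of 16 alternatives, and the smallest adjusted p of the components ran from 0.804 to 1 over 13. The share of probes well above background differed by 6.50 percentage points without control replicate 2 (adjusted p = 0.0536, exact permutation) and by 2.07 without control replicate 1, against 4.26 with all arrays. By replicate number, no paired analysis was possible because the labels carry none. The paired fits given here, which called 1, 3 and 0 probes, rest instead on pairs inferred from the arrays. The share of probes with an interval within 1.5-fold was 29.1% in the main setting, 59.3% after normexp and 62.3% with inferred pairs as a fixed block. The offset of normexp narrows the intervals of dim probes by construction.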
